A study of Mus musculus with 9 samples.

Results

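Osteosarcomas of 2 mouse models were compared for 10 genes that build, hold back or accompany the enzymes which break down bone matrix: Ctsk, Acp5, Mmp2, Mmp9, Mmp13, Mmp14, Mmp16, Timp1, Timp2 and Timp3. The members were found by gene symbol among the 55367 genes of the deposited table, where each symbol occurred once, and all 10 passed the filter on low counts that left 15365 genes. Whole-tumor RNA-Seq had been done on 4 p53-driven and 5 Myc-knockin tumors. The p53-driven mice carried Col2.3-Cre, a Cre recombinase under an osteoblast-specific promoter, and 1 floxed Trp53 allele beside a wild-type one (Col2.3-Cre/TrpP53fl/+). The Myc-knockin mice came from a cross of these mice with Lox-Stop-Lox-c-MycT58A mice, so both groups shared the Cre and the floxed Trp53 allele, and only the Myc-knockin group carried the Cre-released c-MycT58A allele. The paper reports a much shorter median time to sacrifice for Myc-knockin than for p53-driven mice. Age and genotype therefore cannot be told apart here. The Cre acts in osteoblasts, whereas the RNA came from all cells of the tumor. The sources used here give neither the age of the single mice nor which mouse gave which tumor. The p values therefore measure the spread between these samples.

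Bone matrix is mostly mineralised type I collagen. Osteoclasts remove it by acidifying the bone surface and secreting cathepsin K, while matrix metalloproteinases (MMPs), zinc enzymes made by osteoblasts, stromal cells, macrophages and osteoclasts, cleave collagens, gelatin and other matrix proteins at neutral pH. The tissue inhibitors of metalloproteinases (TIMPs) bind the active site of MMPs, and TIMP2 also takes part in the activation of pro-MMP2 by MMP14 at the cell surface.

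The deposited columns bear tumor names rather than sample titles. F187, F325, F331 and F368 were taken as p53 driven and M408 and M624 as Myc knockin from the names in the study's supporting data, and M351, M9 and M664 were placed in the Myc-knockin group by their letter M alone. Total counts ran from 2716322 to 17073285 per tumor. Values are CPM, edgeR's counts relative to the library size in units of 1e6, scaled by the TMM method, and 3 counts corresponded to between 0.114 and 2.39 CPM. Myc itself had 43.5 to 67.1 CPM in the p53-driven tumors and 144 to 1045 CPM in the Myc-knockin tumors. In 4 libraries (F187, M351, M408 and M9) between 23.2% and 81.0% of the counts lay on 12 satellite-repeat genes, against at most 0.0242% in the others. M624 and M664 held at most 9.32 counts of the small RNA Rn7sk per 1e6 counts outside the satellite genes, against at least 8858 in each other library. The results of the 10 genes are therefore also given without the 4 satellite-rich libraries and without M624 and M664. This was done where a call changed or the fold moved by over 1.5 times. The former fit leaves M624 and M664 as the only Myc-knockin tumors, and the latter leaves only the satellite-rich M351, M408 and M9. Every Myc-knockin library thus had either feature, against F187 alone among the p53-driven ones. These library features and the genotype cannot be told apart.

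All 10 genes had a lower mean in the Myc-knockin tumors. Ctsk, Mmp2 and Mmp14 passed the test, which required an adjusted p (edgeR, Benjamini-Hochberg) below 0.05 together with more than a 1.5-fold difference. Of all genes tested, 461 (3.00%) were called lower in the Myc-knockin tumors and 809 (5.27%) were called in either direction. The median log2 fold change, Myc knockin minus p53 driven, was -1.79 over the 10 genes and 0.14 over all genes tested. The 2 groups did not overlap for Ctsk, Mmp2, Mmp13, Mmp14 and Mmp16, and 1990 of all genes tested (13.0%) had groups that did not overlap.

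**Figure D1:**
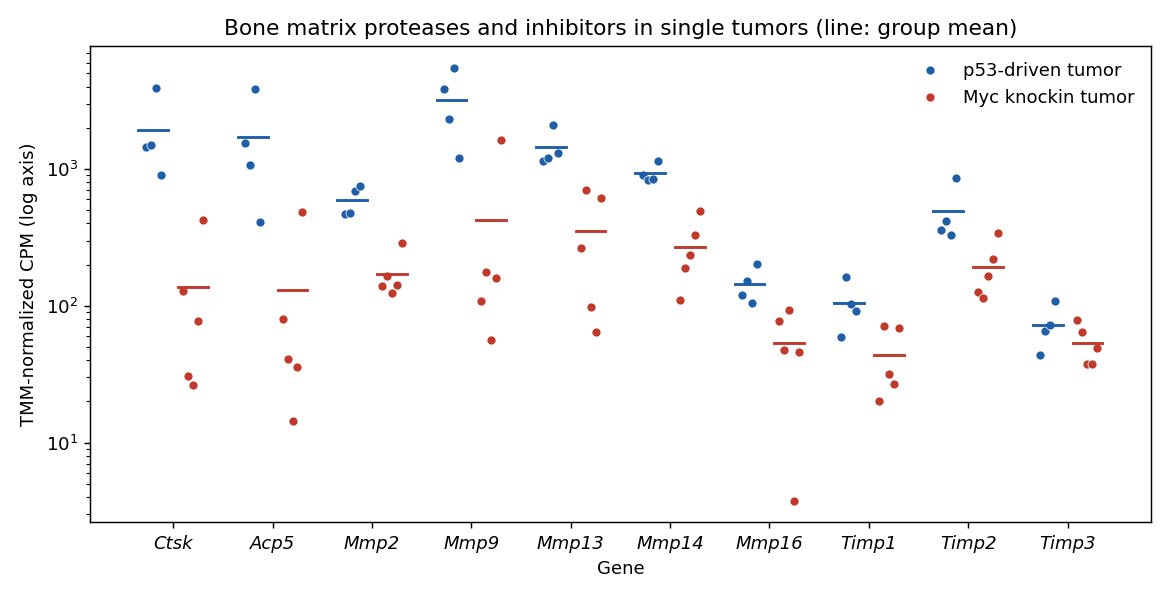
TMM-normalized CPM on a log axis for each of the 10 genes, with 1 point per tumor (blue, 4 p53-driven; red, 5 Myc-knockin) and a line at the group mean. The red points of Ctsk, Mmp2, Mmp13, Mmp14 and Mmp16 all lie below the blue ones, and a single Myc-knockin tumor reaches 1628 CPM for Mmp9.

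Upstream sequences are shown for the 3 members whose groups did not overlap and for which the RefSeq promoter table (GRCm38.p6, the mm10 genome) has an entry, and a shorter stretch is shown for Acp5, the other osteoclast enzyme. The table matched 7 of the 10 members and has no entry for Mmp2, Mmp9 and Mmp16. Each line holds the 250 bases before the annotated start, 5′ to 3′ along the gene, all on the plus strand, and capitals mark matches to the motifs named below. The windows are chr3:95498960-95499209 for Ctsk, chr9:7272264-7272513 for Mmp13 and chr14:54431348-54431597 for Mmp14.
Ctsk: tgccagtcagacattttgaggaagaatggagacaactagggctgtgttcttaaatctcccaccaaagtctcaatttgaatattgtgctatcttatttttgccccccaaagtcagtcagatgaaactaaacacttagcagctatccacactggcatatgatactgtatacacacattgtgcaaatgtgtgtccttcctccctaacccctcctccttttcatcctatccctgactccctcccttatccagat
Mmp13: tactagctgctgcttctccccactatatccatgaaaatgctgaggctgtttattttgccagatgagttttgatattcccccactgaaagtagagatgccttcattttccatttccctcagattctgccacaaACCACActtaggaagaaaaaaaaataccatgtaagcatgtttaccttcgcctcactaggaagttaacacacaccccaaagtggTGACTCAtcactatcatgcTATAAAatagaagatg
Mmp14: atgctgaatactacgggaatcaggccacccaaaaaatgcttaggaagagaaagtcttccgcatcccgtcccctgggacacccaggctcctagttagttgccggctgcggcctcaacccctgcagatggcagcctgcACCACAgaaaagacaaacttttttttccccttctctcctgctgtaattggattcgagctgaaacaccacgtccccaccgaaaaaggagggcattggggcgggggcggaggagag
Acp5 has 3 annotated starts on the minus strand of chromosome 9, and these 30 bases (chr9:22130671-22130700) come from the window of the most downstream of them.
Acp5: aagtccagtgctCACATGAcccaaggggag

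Short motifs were searched on both strands of the 250-base windows, after the sequences of these members had been seen. The AP-1 motif (TGANTCA) occurred once, in Mmp13, where it ended 29 bases before the start, and 6.75% of the 32851 windows in the table hold it. The RUNX motif (ACCACA) occurred in Mmp13 and Mmp14 and is held by 14.0% of all windows. The TATA motif (TATAAA) was found in Mmp13 alone among the members, against 12.4% of all windows. The M-box (TCATGTG), read on the other strand as the capitals of the Acp5 line, was found in that window alone among the 9 windows of the members, against 3.25% of all windows. The E-box of MYC and MAX (CACGTG) was in none of the 9 windows, and 6.02% of all windows hold it. These are matches of letters in a short window, and no binding was measured.

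Ctsk encodes cathepsin K, the collagen-degrading cysteine protease of osteoclasts, and showed the largest fold of the 10 genes. It lies on chromosome 3 (95499256 to 95509362 of mm10, plus strand, ENSMUSG00000028111). Ctsk had 1449 CPM in F187, 1508 in F325, 3905 in F331 and 901 in F368. In the Myc-knockin tumors it had 129 CPM in M351, 31.0 in M408, 26.3 in M9, 77.1 in M624 and 425 in M664. Every Myc-knockin tumor lay below every p53-driven one, and M664 stood highest among them. The means were 1941 ± 1337 CPM (SD, n = 4) and 138 ± 166 CPM (SD, n = 5), a 14.1-fold difference in the edgeR fit. On the log2 scale this was -3.81 (SE 0.86, 95% interval -5.70 to -1.93, edgeR adjusted p = 0.0348). The call rested on single libraries: without F331 it was -3.20 with an edgeR adjusted p of 0.117, and Ctsk was called in 3 of the 9 fits that left out 1 tumor. Without the 4 satellite-rich libraries the log2 fold change was -3.05 with an edgeR adjusted p of 0.0676, and without M624 and M664 it was -4.93 with an adjusted p of 0.0313.

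Acp5, the tartrate-resistant acid phosphatase that serves as the classical stain for osteoclasts, followed Ctsk from tumor to tumor. It had 1537 CPM in F187, 1063 in F325, 3835 in F331 and 412 in F368. The Myc-knockin values were 80.0 CPM in M351, 41.0 in M408, 14.3 in M9, 35.9 in M624 and 481 in M664. M664 thus exceeded F368, the lowest p53-driven tumor, and the other 4 Myc-knockin tumors lay below all p53-driven ones. Its log2 fold change of -3.71 (SE 1.03, 95% interval -5.96 to -1.45) missed the threshold with an edgeR adjusted p of 0.0576. It was called in 1 of the 9 fits that left out 1 tumor, without M664 (-5.29, edgeR adjusted p = 0.0252), while it was -2.92 without F331 (adjusted p = 0.183). Without M624 and M664 it was -5.19 (edgeR adjusted p = 0.0344), and without the 4 satellite-rich libraries -2.76 (adjusted p = 0.177). The alternative methods DESeq2 (adjusted p = 0.00522) and limma-voom (adjusted p = 0.0161) called Acp5. Acp5 shares 137 exon bases with 6530413G14Rik on the opposite strand, and the strand setting of the counting is not given in the sources used here. Reads from genomic DNA would account for 2.49 of its 18 counts in M9.

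**Figure D2:**
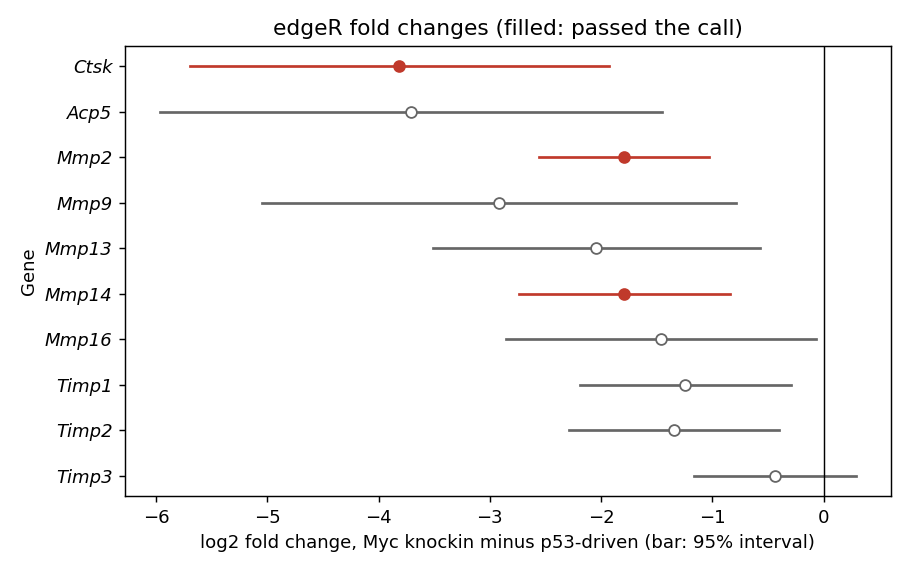
edgeR log2 fold change (Myc knockin minus p53 driven, horizontal axis) of each of the 10 genes with its 95% interval; filled red points passed the call. All 10 points lie below 0, from -3.81 for Ctsk to -0.44 for Timp3, and only the interval of Timp3 crosses 0.

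The gelatinases MMP2 and MMP9 cut denatured collagen and basement membrane collagen. Mmp2, typical of mesenchymal cells, had the smallest SE of the 3 called genes. It had 467 CPM in F187, 475 in F325, 685 in F331 and 756 in F368, against 140 in M351, 165 in M408, 125 in M9, 142 in M624 and 287 in M664. The Myc-knockin tumors formed a narrow band below the p53-driven ones, apart from M664. Mmp2 was 3.46-fold lower (log2 fold change -1.79, SE 0.35, 95% interval -2.56 to -1.03, edgeR adjusted p = 0.0252), and its means were 596 ± 147 CPM (SD, n = 4) and 172 ± 65.8 CPM (SD, n = 5). It was called in 6 of the 9 fits that left out 1 tumor, the exceptions being F325, F331 and F368, with edgeR adjusted p values up to 0.105. Mmp2 was also called without the 4 satellite-rich libraries (log2 fold change -1.55, edgeR adjusted p = 0.0473) and without M624 and M664 (-1.99, edgeR adjusted p = 0.0297). It was not called after scaling by library size alone (edgeR adjusted p = 0.225) or with all genes of at least 1 count (adjusted p = 0.0760).

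Mmp9, which osteoclasts, neutrophils and macrophages produce, had the highest mean CPM of the 10 genes in the p53-driven tumors. Its values were 3826 CPM in F187, 2325 in F325, 5509 in F331 and 1209 in F368. In the Myc-knockin tumors it had 108 CPM in M351, 177 in M408, 56.6 in M9 and 159 in M624, but 1628 in M664. The groups overlapped through M664 alone, which exceeded F368. A log2 fold change of -2.92 (SE 0.97, 95% interval -5.04 to -0.79) was not called (edgeR adjusted p = 0.0902). Without M664 it was -4.67 with an edgeR adjusted p of 0.0241, and the other 8 fits that left out 1 tumor did not call it. Without M624 and M664 it was -4.75 (edgeR adjusted p = 0.0282), and without the 4 satellite-rich libraries -1.73 (adjusted p = 0.273). DESeq2 (adjusted p = 0.00449) and limma-voom (adjusted p = 0.0173) called Mmp9.

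Mmp13, the main interstitial collagenase of rodents and a product of osteoblasts and hypertrophic chondrocytes, lay lower in each Myc-knockin tumor without passing the test. It had 1145 CPM in F187, 1199 in F325, 2099 in F331 and 1319 in F368. The Myc-knockin tumors had 265 CPM in M351, 703 in M408, 98.8 in M9, 64.8 in M624 and 617 in M664. M408 and M664 stood above the other 3 Myc-knockin tumors, yet below all p53-driven tumors. Mmp13 had a log2 fold change of -2.04 (SE 0.67, 95% interval -3.51 to -0.57) and was not called (edgeR adjusted p = 0.0870). Over the 9 fits that left out 1 tumor it ran from -2.43 to -1.70, and none of them called it. DESeq2 (adjusted p = 0.0100) and limma-voom (adjusted p = 0.0309) called Mmp13.

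The membrane-type MMPs stay anchored at the cell surface, where MMP14 cleaves collagen and activates pro-MMP2. Mmp14 had 906 CPM in F187, 835 in F325, 851 in F331 and 1153 in F368. It had 110 CPM in M351, 189 in M408, 235 in M9, 328 in M624 and 490 in M664. The p53-driven tumors lay close together and all above the Myc-knockin tumors, which spread widely. Mmp14 was 3.46-fold lower (log2 fold change -1.79, SE 0.43, 95% interval -2.74 to -0.84, edgeR adjusted p = 0.0412), with means of 936 ± 147 CPM (SD, n = 4) and 270 ± 146 CPM (SD, n = 5). It was called in 2 of the 9 fits that left out 1 tumor, namely without M9 and without M664, and its edgeR adjusted p without F368 was 0.153. Without the 4 satellite-rich libraries Mmp14 had a log2 fold change of -1.19 (edgeR adjusted p = 0.0608), and without M624 and M664 it was -2.34 (adjusted p = 0.0297).

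Mmp16, a second membrane-type MMP, had lower counts. It had 120 CPM in F187, 152 in F325, 106 in F331 and 203 in F368, against 77.6 in M351, 47.4 in M408, 93.2 in M9, 3.77 in M624 and 45.9 in M664. The groups did not overlap, and M624 was far below the other 8 tumors. For Mmp16 the log2 fold change was -1.46 (SE 0.63, 95% interval -2.85 to -0.07, edgeR adjusted p = 0.168), which was not called. Without the 4 satellite-rich libraries it was -2.59 (edgeR adjusted p = 0.0954), and without M624 and M664 -0.96 (adjusted p = 0.113). Reads from genomic DNA, estimated from chemosensory receptor genes, would account for 10.6 of the 117 counts of Mmp16 in M9. In M351 they would account for 9.62 of 126, and by this estimate both values would be somewhat too high.

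None of the 3 TIMPs passed the edgeR test, whereas DESeq2 called Timp1 (adjusted p = 0.0429) and Timp2 (adjusted p = 0.0126), and limma-voom called Timp2 (adjusted p = 0.0368). Timp1, a secreted inhibitor with little effect on most membrane-type MMPs, had 59.6 CPM in F187, 163 in F325, 103 in F331 and 91.7 in F368. Its Myc-knockin values were 20.3 CPM in M351, 71.1 in M408, 31.9 in M9, 26.7 in M624 and 69.0 in M664. The groups overlapped, since M408 and M664 exceeded F187. For Timp1 the log2 fold change was -1.24 (SE 0.43, 95% interval -2.19 to -0.29, edgeR adjusted p = 0.100). Timp1 lies inside Syn1, on the opposite strand, with no shared exon bases.

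Timp2, the inhibitor that bridges MMP14 and pro-MMP2, had 356 CPM in F187, 415 in F325, 330 in F331 and 864 in F368. It had 126 CPM in M351, 115 in M408, 164 in M9, 221 in M624 and 341 in M664. F368 stood far above every other tumor, and M664 exceeded F331. For Timp2 the log2 fold change was -1.34 (SE 0.43, 95% interval -2.29 to -0.40, edgeR adjusted p = 0.0819). Without M664 it was -1.63 (edgeR adjusted p = 0.0484) and without M624 and M664 -1.81 (adjusted p = 0.0452), whereas without F368 it was -0.94 (adjusted p = 0.301) and without the 4 satellite-rich libraries -0.90 (adjusted p = 0.219).

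Timp3, the inhibitor that binds to the matrix and also blocks several ADAM and ADAMTS proteases, showed the smallest difference. It had 43.8 CPM in F187, 65.2 in F325, 72.7 in F331 and 108 in F368, and 79.4 in M351, 64.6 in M408, 37.4 in M9, 37.3 in M624 and 49.2 in M664. The groups overlapped over most of their range, with M351 second highest of all tumors. The log2 fold change was -0.44 (SE 0.33, 95% interval -1.17 to 0.29, edgeR adjusted p = 0.426). Timp3 shares 1733 exon bases with Syn3 on the opposite strand. Genomic reads would account for 9.98 of its 47 counts in M9 and 9.04 of 129 in M351.

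To compare levels between genes, CPM were divided by the length of each gene's exons in kilobases. In the p53-driven tumors Ctsk stood first with 1284 ± 885 CPM per kilobase (SD, n = 4), followed by Mmp9 with 909 ± 527, Acp5 with 843 ± 733 and Mmp13 with 539 ± 166. The values of neighbours in this leading set overlapped, whereas the lowest Mmp13 value (429) lay above the highest Mmp2 value (224). Mmp2, Mmp14, Timp2 and Timp1 followed, with means from 177 down to 118 CPM per kilobase and overlapping values. Mmp16 (16.8 ± 4.97) and Timp3 (8.90 ± 3.29) came last, below the lowest Timp1 value of 67.2 CPM per kilobase.

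In the Myc-knockin tumors the order of the means was Mmp13 (131 ± 110 CPM per kilobase, SD, n = 5), Mmp9 (120 ± 190), Ctsk (91.0 ± 110), Acp5 (64.3 ± 97.3), Mmp2 (50.9 ± 19.5), Timp2 (49.6 ± 23.8), Timp1 (49.3 ± 27.4) and Mmp14 (45.4 ± 24.4). No neighbours among these 8 genes were separated beyond their spread. Timp3 (6.58 ± 2.24) and Mmp16 (6.18 ± 3.96) again came last. Summed over the 10 genes, the level was 2414 to 7382 CPM per kilobase in the p53-driven tumors and 247 to 1552 in the Myc-knockin tumors. Ctsk made up 29.1% ± 4.74 (SD, n = 4) of this sum in the p53-driven tumors and 13.3% ± 7.66 (SD, n = 5) in the Myc-knockin tumors. Timp2 made up 4.03% ± 3.55 and 10.7% ± 6.01, respectively. Ctsk led in F325, F331 and F368, and Mmp9 in F187. Among the Myc-knockin tumors the leading gene was Mmp13 in M351 and M408, Timp2 in M9 and M624 and Mmp9 in M664.

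**Figure D3:**
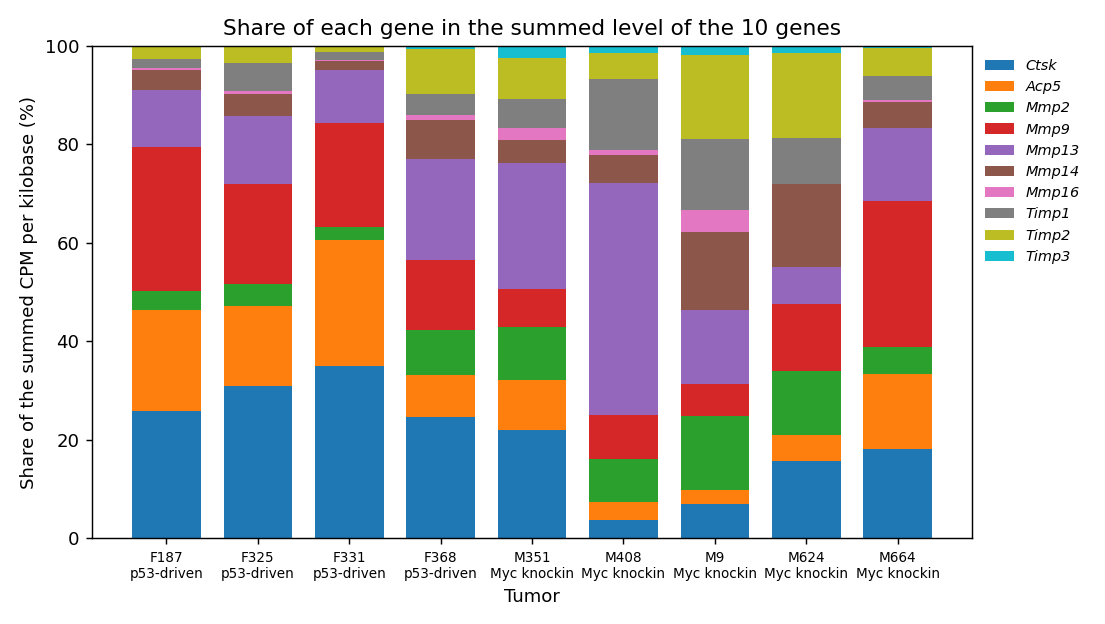
Share (%) of each of the 10 genes in their summed CPM per kilobase, with 1 stacked bar per tumor (4 p53-driven, left; 5 Myc-knockin, right). Ctsk makes up 24.7% to 35.0% of the p53-driven bars and 3.68% to 21.9% of the Myc-knockin bars, and Mmp13 reaches 47.2% in M408.

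The balance of enzyme and inhibitor was described as the summed level of the 5 MMPs divided by that of the 3 TIMPs, both in CPM per kilobase, with no test. This ratio was 11.1 in F187, 4.71 in F325, 12.9 in F331 and 3.77 in F368, and 3.06 in M351, 3.40 in M408, 1.70 in M9, 1.82 in M624 and 5.04 in M664. M664 lay above F325 and F368, and the other 4 Myc-knockin tumors lay below all p53-driven ones. The means were 8.10 ± 4.53 (SD, n = 4) and 3.00 ± 1.36 (SD, n = 5). For Mmp9 over Timp1, whose products bind each other, the ratio ran from 3.31 to 16.1 in the p53-driven tumors and from 0.445 to 5.92 in the Myc-knockin tumors. For Mmp14 over Timp2 it ran from 0.872 to 1.68 and from 0.574 to 1.08.

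The tumor-to-tumor pattern within groups was described by Pearson's r of log2 CPM over the 9 tumors, with the mean of each group taken off. The points share their library and its depth, so r is given as a description. The genes named below as most like a member had the highest r of 9538 genes over only 9 tumors. Their high r follows in part from that choice and was not tested. Ctsk and Acp5 (0.94), Acp5 and Mmp9 (0.93) and Ctsk and Mmp9 (0.83) ran together. Mmp14 and Timp2 (0.81) formed a second pair. Mmp13 and Mmp14 (-0.03) showed no common pattern, and Mmp16 had its highest r with Mmp13 (0.45). Among the 9538 other genes with a mean of at least 10 CPM, those most like Ctsk were Gpr137b (0.97), Uchl1 (0.96) and Lamtor5 (0.96), and those most like Acp5 were Arl6ip5 (0.96), Mrpl16 (0.94) and Gm2a (0.94). Mrpl16 (0.96), Ndufs7 (0.96) and Slc39a1 (0.95) were nearest to Mmp9, and Osbpl5 (0.97), Jund (0.97) and Ptpa (0.96) to Mmp14. Ap3d1 (0.96), Irak1 (0.96) and Ufm1 (0.95) were nearest to Mmp2, and Sdhaf2 (0.99), Serinc1 (0.98) and Ndufa12-ps (0.95) to Mmp13. For Mmp16 these genes were Kat2b, Lmo7 and Zfhx4 (each 0.99), and M624 was low for Mmp16. For the inhibitors they were Arpc1b (0.96), Katna1 (0.94) and Vapb (0.94) with Timp1, Gpr180 (0.96), Fam104a (0.95) and Ccnl2 (0.95) with Timp2, and Parva (0.97), Sulf1 (0.95) and Ssr3 (0.95) with Timp3.

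Osteoclasts express Ctsk, Acp5 and Mmp9, and 16 other osteoclast markers were examined beside them. Of these, 11 were called lower in the Myc-knockin tumors and none higher, with a median log2 fold change of -2.69. Their summed level was 860 to 3098 CPM in the p53-driven tumors and 209 to 582 CPM in the Myc-knockin tumors, and Dcstamp, which osteoclast precursors need to fuse, had 0 counts in M408. The called markers highest in expression were Atp6v0d2, a proton pump subunit (log2 fold change -4.21, edgeR adjusted p = 0.0116), Nfatc1, the master transcription factor of osteoclasts (-2.23, edgeR adjusted p = 0.0229), and Atp6v1c1, another pump subunit (-1.99, edgeR adjusted p = 0.0188). With F325, F331 or F368 left out, only 8, 6 and 5 of all genes tested were called. The calls of these markers and of the lists below therefore also depended on single tumors. In whole tumors, fewer cells of a type and less RNA per cell cannot be told apart.

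The CPM of Ctsk divided by the summed osteoclast markers was 1.05 to 1.26 in the p53-driven tumors and 0.107 to 0.729 in the Myc-knockin tumors, without overlap. In M664, Ckb (146 CPM) and Tcirg1 (135 CPM), neither of them called, were the largest parts of the 582 CPM of this sum. Atp6v0d2 had 22.8 CPM there. Whether Ctsk fell beyond the osteoclast content of the tumors was not tested. Of the 16 markers, 4 had a log2 fold change below that of Ctsk, namely Calcr (-4.44), Oscar (-4.68), Dcstamp (-5.02) and Atp6v0d2 (-4.21). The other 5 ratios overlapped between the groups, among them Acp5 with 0.480 to 1.24 and 0.0583 to 0.826 and Mmp13 with 0.678 to 1.53 and 0.212 to 3.36. Mmp9 divided by the same sum was 1.41 to 2.80 and 0.230 to 2.79. For Mmp2 and Mmp14 the ratios were 0.221 to 0.880 and 0.464 to 0.787 (Mmp2), and 0.275 to 1.34 and 0.392 to 1.07 (Mmp14). These ratios were chosen after the values were seen and were not tested.

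**Figure D4:**
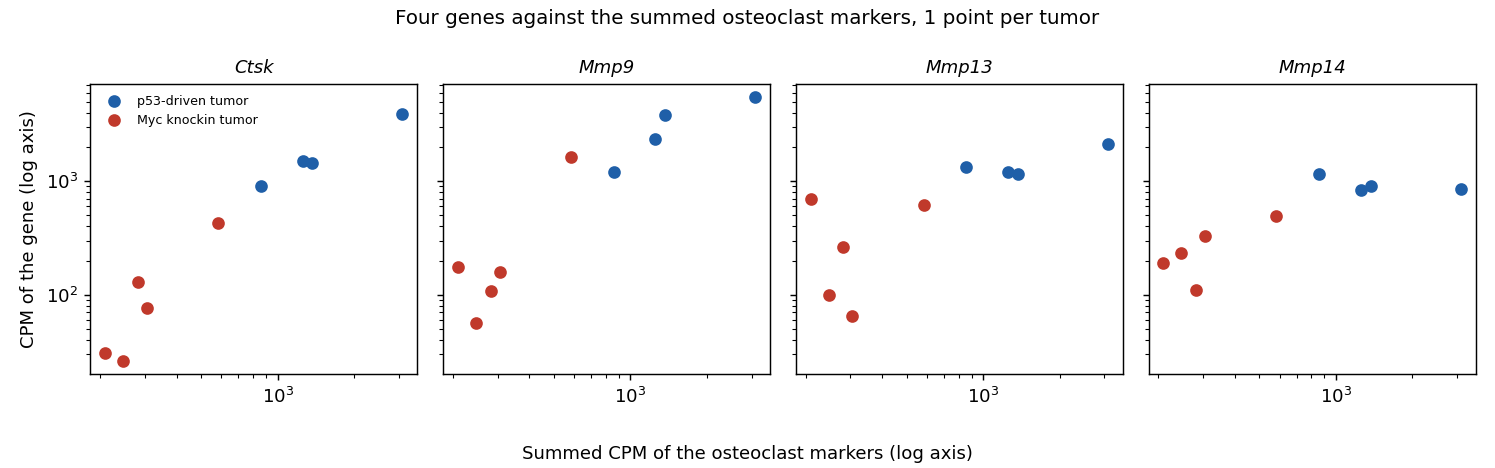
CPM of Ctsk, Mmp9, Mmp13 and Mmp14 (vertical, log axis) against the summed CPM of 16 osteoclast markers (horizontal, log axis), with 1 point per tumor (blue, 4 p53-driven; red, 5 Myc-knockin). The blue points of Ctsk lie above and to the right of all red ones, whereas Mmp14 stays between 835 and 1153 CPM in the p53-driven tumors while their sum runs from 860 to 3098 CPM.

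Markers of other cells moved too. The summed fibroblast markers ran from 3953 to 12655 CPM in the p53-driven and from 1063 to 2352 CPM in the Myc-knockin tumors, and 4 of 7 were called lower, with Fn1, which encodes fibronectin (log2 fold change -2.37, edgeR adjusted p = 0.0380), Col6a1, a chain of type VI collagen (-1.88, adjusted p = 0.0422), and Dcn, which encodes decorin (-3.78, adjusted p = 0.0265), the highest in expression. The other 3, Pdgfra (-1.05), Dpt (-0.62) and Pi16 (0.18), were not called, and their groups overlapped. The summed osteoblast markers ran from 66286 to 141957 CPM and from 3691 to 42260 CPM, and 2 of 14 were called lower, the osteocalcin genes Bglap2 (-5.42, edgeR adjusted p = 0.0288) and Bglap (-5.34, adjusted p = 0.0260). Col1a1 and Col1a2, neither of them called, made up 89.6% to 97.0% of the sum in the p53-driven tumors, and without them the groups overlapped (4190 to 8658 CPM and 429 to 6316 CPM), as did 8 of the 14 single markers. Bglap and Bglap2 had 0 counts in M408, and Bglap2 also had none in M624. Of 12 macrophage markers, Csf1r (-2.47, edgeR adjusted p = 0.0243), Cd68 (-2.27, adjusted p = 0.0229) and Tyrobp (-2.13, adjusted p = 0.0392) were called lower. The other 9 were not called, and 3 of them had a positive log2 fold change, namely C1qb (0.56), C1qa (0.17) and Aif1 (0.06). The summed level of the 12 markers overlapped between the groups. No marker of neutrophils (4 tested), cartilage (9), endothelium (6) or muscle (6) was called. The summed cartilage markers were 672 to 4176 CPM and 205 to 483 CPM, but without Col11a2 they overlapped (78.2 to 2670 CPM and 83.2 to 190 CPM). The part of these cell types in the levels of the proteases and TIMPs was not tested.

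Among 101 genes of related protease and inhibitor families, 77 were tested, and 7 were called lower and 2 higher, with a median log2 fold change of -0.34. Mmp12, the macrophage elastase, was the only called gene among the 11 other MMPs tested and rose. It had 9.48 CPM in F187, 1.71 in F325, 3.03 in F331 and 1.58 in F368, against 19.7 in M351, 31.7 in M408, 25.5 in M9, 46.4 in M624 and 12.6 in M664. The groups did not overlap, and the log2 fold change was 2.91 (SE 0.62, edgeR adjusted p = 0.0309). Without F331 or without F368 no gene was called higher, so this call and that of Acpp below were lost. The 11 other MMPs had a median log2 fold change of 0.36, against a negative value for each of the 5 MMPs described above. Most of the 11 were low: apart from Mmp23 (33.1 CPM, log2 fold change -2.09), their p53-driven means reached at most 9.34 CPM (Mmp15). Estimated genomic reads made up 16.6% of the counts outside the satellite genes in M351 and 23.8% in M9. Every other library had at most 5.42% (F187). The part of such reads in the median of the 11 genes was not tested.

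The other called family members fell, apart from the acid phosphatase Acpp (log2 fold change 3.61, edgeR adjusted p = 0.0394), whose groups overlapped. Of the 16 ADAMTS proteases tested, Adamts2, a procollagen N-proteinase (-2.88, edgeR adjusted p = 0.0217), Adamts9 (-2.10, adjusted p = 0.0229) and Adamts4, an aggrecanase (-1.57, adjusted p = 0.0217), fell. Fap, the fibroblast activation protein, fell by 2.95 on the log2 scale (edgeR adjusted p = 0.0321), from 518 ± 153 CPM (SD, n = 4) to 67.7 ± 43.0 CPM (SD, n = 5). Adam12 was 1 of 8 ADAM proteases tested to be called (-1.96, edgeR adjusted p = 0.0334). Ctsa was the only called gene of the 10 other cathepsins tested (-1.86, edgeR adjusted p = 0.0252), and Acp2, the lysosomal acid phosphatase, also fell (-1.19, edgeR adjusted p = 0.0287). No gene was called among the other metalloprotease inhibitors (4 tested), procollagen proteinases (4), cystatins (2), the plasminogen activator system (6) and the genes that induce or dock MMPs (6).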

How the data were processed

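RNA was extracted from whole tumors, mRNA was captured with oligo-dT beads, and libraries were made with a stranded kit and sequenced in pairs. According to the methods and the submitters' processing notes, the authors used Trim Galore for trimming, STAR for mapping (mm10) and featureCounts for counting. What they deposited are gene-level counts that were not normalized. The strand setting and the treatment of reads mapping to several places are not given in the sources used here, which affects genes that overlap others.

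Counts were tested in R 4.3.3 with edgeR 4.0.16 (TMM, filterByExpr with a minimum count of 10, glmQLFit and glmQLFTest) over 15365 genes, with Benjamini-Hochberg adjustment and tumors as replicates. log2 CPM used a prior count of 2. Exon lengths and positions came from GENCODE, which holds 55034 of the 55367 genes. Genomic background was estimated from 2053 chemosensory receptor genes per kilobase of exon. DESeq2 1.42.0 and limma 3.58.1 (voom) served as alternatives. The paper's methods name DESeq2 as the authors' own test, with the same thresholds on adjusted p and fold as here. The procedure was tested on simulated data. The members, gene lists and tests were chosen with earlier results of these data known. The named related genes were the called ones reaching a group mean of 5 CPM, up to 8 in each direction, and the named markers up to 3 called genes per list by mean CPM. All 10 members were named, with the 3 genes of highest r for each. Intervals and floors cover counting error or tumor spread only. Protein sequences were not used here.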

Additional observations from a re-analysis of the deposited data

Results flagged for a closer look

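Within each group, the highest and lowest tumor of each of the 10 genes and of 3 ratios was compared with the rest by Dixon's test, and 2 of 26 groups of values stood out; chance gives about 1 in 20. Mmp16 in M624 lay at 1.99 on the log2 CPM scale, against 5.53 to 6.55 in the other 4 Myc-knockin tumors. Without M624, the log2 fold change of Mmp16 was -1.09. The ratio of Mmp14 to Timp2 in M351 lay at -0.80 on the log2 scale, against -0.10 to 0.11 in the other 4 Myc-knockin tumors.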

How the results depend on the processing

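The direction of all 10 genes was the same in the 190 single-gene fits under alternatives, while calls depended on the processing. As reported, edgeR called 809 genes and 3 members; the alternatives gave these counts of genes and members. Upper-quartile normalization gave 971 and 3, library size alone 136 and 0, DESeq2 2670 and 8 (all but Mmp16 and Timp3), limma-voom 2977 and 7 (Timp1 also not), all genes with at least 1 count 494 and 2 (Ctsk and Acp5), and at least 10 counts in every tumor 1316 and 4. Omitting M624 and M664 gave 660 and 6, omitting the 4 satellite-rich libraries 4595 and 1, removing satellite genes 644 and 3, and subtracting genomic background 1132 and 4. With 1 tumor left out at a time, 5 to 1588 genes and 0 to 6 members were called; no member was called without F325, F331 or F368, and 6 were without M664. Of the calls, 57.0% were lower as reported, 35.5% with upper quartile, 42.0% with DESeq2, 40.3% with 10 counts in every tumor, 45.2% after background subtraction and 43.5% without the satellite-rich libraries. With all genes of at least 1 count, the median log2 fold change of all genes was 0.97. The log2 difference of the MMP to TIMP ratio was -1.36, and -0.86 without the highest member of each. Levels per kilobase of the longest transcript put Mmp9 before Mmp13 and moved Mmp14 from position 8 to 5 in the Myc-knockin order, and put Acp5 before Mmp9 in the p53-driven order. No paired analysis was possible because the columns carry no replicate numbers. The lowest counts of the members were 18 (Acp5, M9) and 33 (Ctsk, M9; Timp1, M351).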
